A study of Mus musculus with 79 samples.

Results

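The 44 genes described here encode voltage-gated, calcium-activated, sodium-activated and leak potassium channels and their auxiliary subunits. They were chosen by name, with the inward rectifiers left out, and make up 44 of the 55335 genes in the deposited count table. Counts for them were read in nuclei of mouse visual cortex, sorted at 50 to 100 nuclei per library in 79 libraries. All mice carried INTACT wt/ki, a tag of the nuclear envelope, together with VIP Cre wt/ki, which puts Cre recombinase in vasoactive intestinal peptide (VIP) interneurons, a class of cortical inhibitory cells. Each label gave 10 days of dark housing, for controls as well. Per the labels' protocols, an adeno-associated virus (AAV) was injected into the visual cortex at postnatal day 55 to 60. Dark housing began 3 days later and lasted 10 to 12 days. The protocols also name harvest after 1 h of light, but no library label did.

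The vector carried Kir2.1, an inward rectifier that holds neurons near their resting potential, or a mutant Kir2.1, with the red nuclear marker mScarlet-KASH. Both were driven by the Syn1 promoter, which is active in neurons of all classes, so VIP cells and their neighbours were transduced together. Transduced VIP nuclei came from 10 Kir2.1 and 9 mutant libraries, and transduced neurons from 8 and 8. Nuclei sorted as non-transduced from the same kinds of mice gave 10 and 9 libraries of VIP nuclei and 10 and 9 of all nuclei. The uninjected mice, all male, contributed 3 VIP libraries and 3 made from all nuclei, while the injected groups held both sexes. The series states that it asked what residual activity does in visual cortex kept in the dark, using Kir2.1 to silence it.

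Potassium channels set how easily a neuron fires and how fast it recovers. Kv1, Kv2, Kv3 and Kv4 pores open on depolarisation, Kv3 channels fast enough for repeated short spikes, and Kv4 channels only with their KChIP and DPP partners at full speed. SK and BK channels open on calcium entry, Slo2 channels on sodium entry, KCNQ channels carry the M current, and two-pore-domain (K2P) channels carry the leak that sets the resting potential.

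The 79 libraries held 3219899 to 9267246 counts each, and the members took 1.16% to 3.15% of them. Levels are given as CPM, counts scaled to library size. No label ties a library to a particular mouse, so p-values measure only the spread between these libraries. In bulk nuclei, fewer cells of a type and less RNA per cell cannot be told apart. Kcnj2, which encodes Kir2.1 itself, served as the check of the labels: its mean was 594 CPM in Kir2.1 and 764 CPM in mutant transduced VIP nuclei, and 15.2 and 22.4 CPM in the non-transduced ones. It cannot tell the vectors apart. Among the Kir2.1 libraries of all non-transduced nuclei, 2 stood high in Kcnj2, at 157 and 71.7 CPM. A further 6 libraries stood apart by their correlation with their group's median profile, which was 0.88 to 0.929: replicate 1 of both groups of transduced VIP nuclei, replicate 9 of Kir2.1 and replicates 1 and 8 of mutant non-transduced VIP nuclei, and replicate 10 of Kir2.1 neurons. Without those of the 8 libraries that a comparison used, each comparison called as many members in each direction as with them, except where stated.

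Promoters are shown for 4 members that carried the main results. Kcnc1 and Kcnc2, a pair of Kv3 genes, moved in opposite directions in VIP nuclei, and Kcnt2 and Kcnip4 fell in neurons. Each line gives the 250 bases before the RefSeq start on the gene's own strand (GRCm38.p6), with capitals marking a motif found by a search.
Kcnc1: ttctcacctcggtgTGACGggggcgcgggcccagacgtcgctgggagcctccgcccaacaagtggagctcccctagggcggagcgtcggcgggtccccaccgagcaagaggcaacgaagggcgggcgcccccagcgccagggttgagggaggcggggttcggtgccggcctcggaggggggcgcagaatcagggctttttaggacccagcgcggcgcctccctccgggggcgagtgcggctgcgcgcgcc
Kcnc2: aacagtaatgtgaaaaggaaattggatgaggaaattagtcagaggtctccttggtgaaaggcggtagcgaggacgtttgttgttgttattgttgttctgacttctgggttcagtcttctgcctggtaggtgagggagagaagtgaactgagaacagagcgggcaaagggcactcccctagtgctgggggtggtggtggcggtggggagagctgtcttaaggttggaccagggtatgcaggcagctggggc
Kcnt2: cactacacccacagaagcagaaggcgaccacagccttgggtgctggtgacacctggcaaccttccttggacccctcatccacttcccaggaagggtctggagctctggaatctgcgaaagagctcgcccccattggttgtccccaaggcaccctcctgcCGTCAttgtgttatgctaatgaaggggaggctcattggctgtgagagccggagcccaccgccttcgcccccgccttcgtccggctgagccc
Kcnip4: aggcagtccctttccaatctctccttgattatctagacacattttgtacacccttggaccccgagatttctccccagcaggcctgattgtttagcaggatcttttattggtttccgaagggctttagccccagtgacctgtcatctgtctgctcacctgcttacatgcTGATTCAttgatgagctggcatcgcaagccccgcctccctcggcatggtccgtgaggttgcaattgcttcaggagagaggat

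The windows lie at chr7:46396218-46396467 (plus strand), chr10:112270871-112271120 (plus), chr1:140245468-140245717 (plus) and chr5:49285660-49285909 (minus). The Kcnip4 window precedes an inner start, 239248 bases from the first base of the gene model. Motifs of factors that respond to activity were searched on both strands. They were the cAMP response element TGACGTCA and its short form TGACG, which lies within it, the Nr4a site AAAGGTCA and the Egr site GCGTGGGCG. The AP-1 site was searched in the loose form TGANTCA, with any base in the middle. Kcnc1 and Kcnt2 held the short cAMP response element, and Kcnc2 none of the motifs. Kcnip4 held TGATTCA, a match only to the loose AP-1 form. GC content was 74.4% in the Kcnc1 window and 52.8% in the Kcnc2 window. Of the 44 members, 33 matched RefSeq, with 53 promoters. Of these 53 promoters, 7 held TGACG, 3 the loose AP-1 form, 1 the Nr4a site and none the full cAMP element or the Egr site. Among all 32851 promoters, TGACG stood in 17.8%, TGANTCA in 6.75%, AAAGGTCA in 1.34%, TGACGTCA in 1.55% and GCGTGGGCG in 0.536%. A match is only a description of the sequence.

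Outside the transduced nuclei, many members already differed between VIP nuclei and all nuclei. Per kilobase of exon, the most abundant member in VIP nuclei without AAV was Kcnip4, the Kv4 partner KChIP4, at a mean of 1160 CPM per kb. Kcnmb2 (187 CPM per kb, a BK channel subunit that closes the pore by inactivation), Kcnq5 (127), Kcnt2 (110) and Kcnd2 (101) followed. In all nuclei without AAV the order was Kcnip4 (1560 CPM per kb), Kcnd2 (268), Dpp10 (262), Kcnq5 (120) and Kcnh7 (72.1). No test was run between genes. Whether intronic reads were counted is not given in the sources used here, so levels per length hold only for these counts.

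VIP nuclei were compared with all nuclei over the 44 libraries that were not transduced or had no AAV, with the vector as a term. Most of these libraries came from injected mice, and those without AAV were not tested alone. Of 43 members tested, 12 were higher and 20 lower in VIP nuclei. Across all genes tested, 32.6% were called, 12.8% higher and 19.7% lower. The VIP side was led by Kcnip1, the KChIP1 subunit of Kv4 channels, and by Kcnmb2. Kcnip1 stood at 437, 559.5 and 590.1 CPM in the 3 VIP libraries without AAV and at 22.3, 40.6 and 80.6 CPM in the 3 of all nuclei. Its log2 fold change was 4.01 ± 0.22 (SE, adjusted p = 7.77e-22). Kcnmb2 stood at 533, 583 and 642 CPM against 84.7, 89.6 and 127 CPM, with a log2 fold change of 3.48 ± 0.23 (adjusted p = 2.16e-18). For both genes the 2 sets of 3 libraries lay far apart.

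The other members higher in VIP nuclei were Kcnh2 (log2 fold change 1.99), Kcnt2 (1.94), Kcnc1 (1.41), Kcnb2 (1.09), Kcnn2 (1.08), Kcnc2 (0.97), Kcnd3 (0.64), Kcnk1 (0.56), Dpp6 (0.50) and Kcnq5 (0.31). Kcnh2 encodes an ERG channel, Kcnt2 a sodium-activated Slo2 channel, Kcnn2 the SK2 channel and Kcnb2 the Kv2.2 pore. Kcnc1 and Kcnc2 encode Kv3.1 and Kv3.2, known from fast-firing interneurons. Kcnq5, the smallest of these differences, lost its call with median-ratio size factors. Among the lower members, Kcnk2 lost its call with no filter on low counts and without the libraries that stood apart, where Kcnh8 was added.

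At the other end stood Kcnh5, a member of the EAG family, at 6.4, 11.8 and 20.7 CPM in VIP nuclei without AAV and 154, 169 and 196 CPM in all nuclei. Kcnh5 had a log2 fold change of -3.87 ± 0.30 (adjusted p = 3.84e-16). Kcnv1, a silent subunit that joins Kv2 pores, stood at 2.96, 6.07 and 6.18 CPM against 22, 41.4 and 77.4 CPM (log2 fold change -2.70). Dpp10, a DPP partner of Kv4, stood at 492.8, 599 and 837 CPM against 2872, 3780 and 5776 CPM (log2 fold change -2.39). Kcnip3, Kcnk10, Kcnc4, Kcnt1, Kcnmb4, Kcnma1, Kcnh7, Kcnq3 and Kcnd2 were lower by log2 fold changes from -2.01 to -1.31. Kcnip2, Kcnn3, Kcnh3, Kcna1, Kcnab2, Kcnk9, Kcnh1 and Kcnk2 followed with -1.28 to -0.41. The 11 members not called were Kcna2, Kcna3, Kcna4, Kcna6, Kcnab1, Kcnab3, Kcnd1, Kcnh8, Kcnip4, Kcnk3 and Kcnn1. Members of a family differed in direction: Kcnip1 was higher in VIP nuclei and Kcnip2 and Kcnip3 lower, Kcnt2 higher and Kcnt1 lower, Kcnmb2 higher and Kcnma1 and Kcnmb4 lower. Among the Kv1 pores only Kcna1 was called (-1.08).

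**Figure D1:**
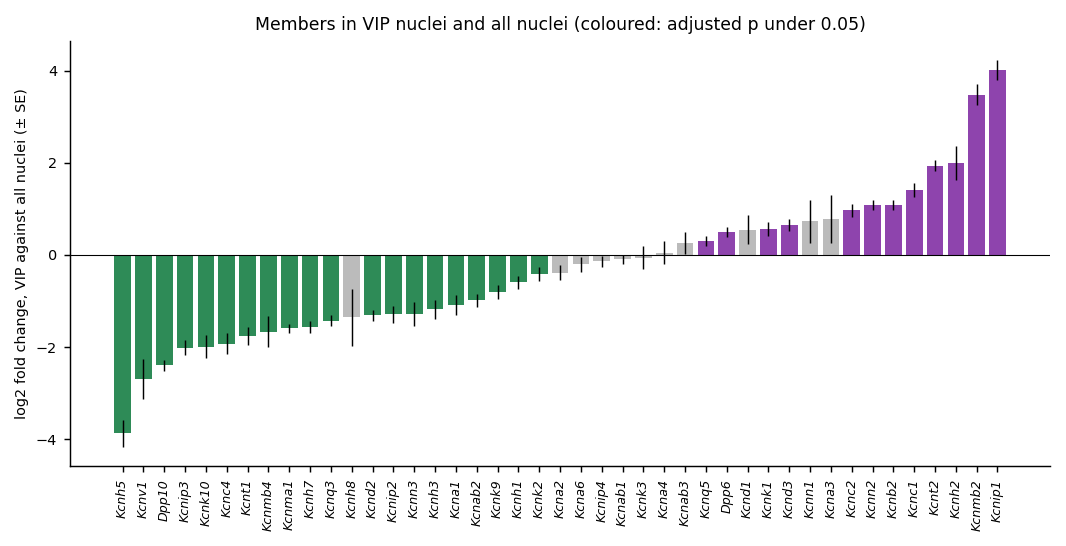
Log2 fold change of each of the 43 members tested between VIP nuclei and all nuclei (vertical axis, bars ± SE, 44 libraries not transduced or without AAV), ordered by size; purple bars are called higher and green bars called lower, grey bars are not called. Kcnip1 and Kcnmb2 stand at the right with values of 4.01 and 3.48 and Kcnh5 at the left with -3.87.

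The same question was put to libraries that share none with this comparison: transduced VIP nuclei against transduced neurons, both with the mutant vector. No label ties a library to a mouse, so both comparisons may draw on the same mice. Of 42 members tested, 7 were higher in VIP nuclei and 23 lower, beside 17.9% of all genes called, 7.0% higher and 10.9% lower. Of the 42, 6 members were higher in both comparisons (Dpp6, Kcnc1, Kcnip1, Kcnmb2, Kcnn2 and Kcnt2) and 19 were lower in both. The share of all genes called the same way in both was not counted, so these counts only describe the members. Kcnq5 was higher in VIP nuclei against all nuclei and lower against transduced neurons, with a log2 fold change of -0.48 ± 0.17 (adjusted p = 0.0414). That second call was lost in 16 of 23 alternatives, DESeq2 and median-ratio factors among them. Calls were also lost for Kcna2 in 15, Kcna4 in 11, and Kcnab1 and Kcnc1 in 8 alternatives each. Without the 3 transduced libraries that stood apart, replicate 1 of both groups of VIP nuclei and replicate 10 of Kir2.1 neurons, 5 members were higher and 24 lower, with Kcnc1 and Kcnab1 no longer called and Kcna1 added.

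Kir2.1 was then compared with the mutant vector in transduced VIP nuclei. Kcnc1, the Kv3.1 gene, rose about 2-fold, while its relative Kcnc2 (Kv3.2), the SK2 gene Kcnn2 and Kcnh3, which encodes an ELK channel active below spike threshold, fell. These were the 4 members called of 43 tested, where 1.39% of all genes tested were called, 0.354% higher and 1.03% lower. The median log2 fold change was -0.13 over the members and 0.04 over all genes, and 28 of 43 members lay below 0, against 46.7% of all genes. At an unadjusted p under 0.05, 1 member was higher and 12 were lower, beside 5.39% and 5.82% of all genes. The same 4 were called without the libraries that stood apart.

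Kcnc1 (chr7:46396497-46438704, plus strand, GRCm38) had 173, 199 and 288 CPM as the lowest, median and highest of the 10 Kir2.1 libraries. In the 9 mutant libraries it had 67.2, 93.4 and 208 CPM. Of the mutant libraries, 8 lay at or below 118 CPM, under all the Kir2.1 libraries, and replicate 1 alone reached into their range. The means were 217 ± 37.4 and 107 ± 40.5 CPM (SD), and the log2 fold change was 1.02 ± 0.18 (adjusted p = 0.000365). Over the alternatives tried it stayed between 0.94 and 1.21 and its adjusted p stayed at or below 0.00183.

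Kcnc2 (chr10:112271121-112467024, plus strand) had 303, 399 and 566 CPM with Kir2.1 and 449.9, 613 and 803 CPM with the mutant. Here 7 of the 10 Kir2.1 libraries lay below every mutant library. The log2 fold change was -0.64 ± 0.15 (adjusted p = 0.0103).

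Kcnn2, whose SK2 channel carries the current that hyperpolarises a neuron after spikes, had 236, 303 and 399.7 CPM with Kir2.1 and 359, 505 and 649 CPM with the mutant, and 9 of the 10 Kir2.1 libraries lay below every mutant one. Kcnn2 fell with a log2 fold change of -0.71 ± 0.13 (adjusted p = 0.000521). Kcnh3 (chr15:99224861-99242817, plus strand) had 0.231, 6.59 and 14.6 CPM with Kir2.1 and 15.4, 22.5 and 29.6 CPM with the mutant. All 10 Kir2.1 libraries lay below all 9 mutant libraries, a separation that 0.189% of all genes tested showed. Its log2 fold change was -1.64 ± 0.41 (adjusted p = 0.0206), and the adjusted p rose to 0.0539 when only these 2 groups were fitted. Kcnh3 overlaps Mcrs1 on the opposite strand and Kcnn2 overlaps 4 genes there. The library kit does not mark strand, so reads of such pairs could not be separated with certainty.

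**Figure D2:**
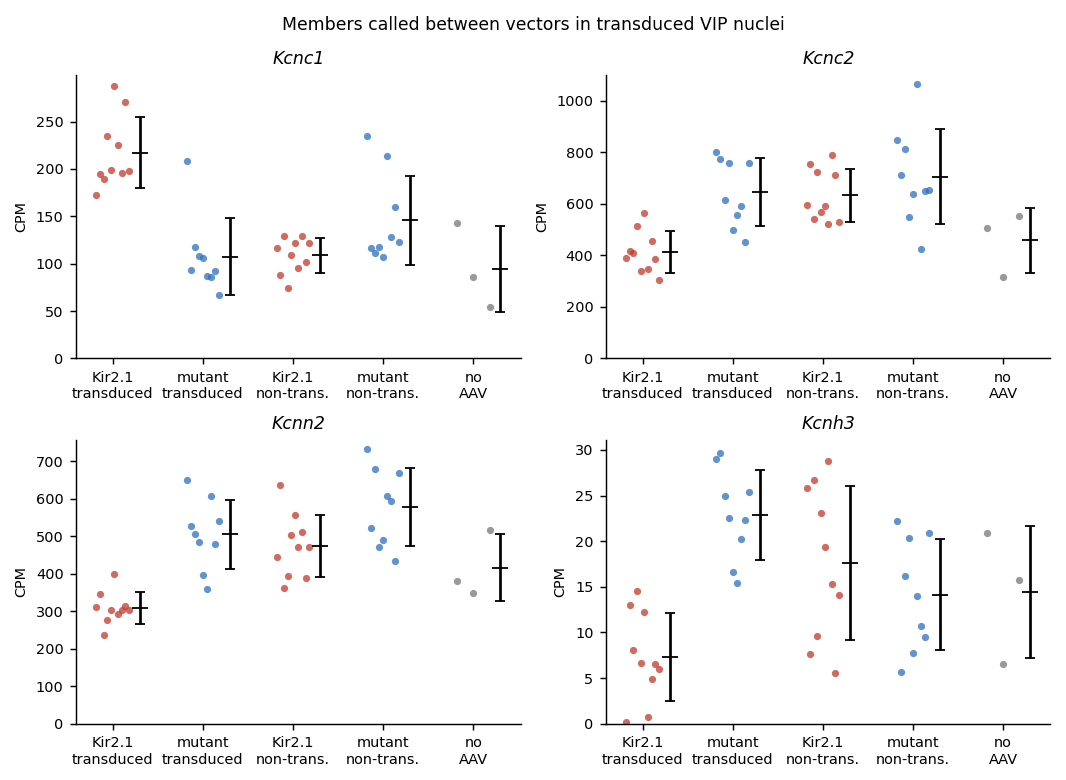
CPM (vertical axes from 0) of the 4 members called in transduced VIP nuclei, in each library of the 5 groups of VIP nuclei; points are libraries, and black marks are means with SD. Kcnc1 stands at 173 to 288 CPM in transduced Kir2.1 nuclei and at 53.7 to 235 CPM in the other groups. Kcnh3 stands at 0.231 to 14.6 CPM in transduced Kir2.1 nuclei, below the transduced mutant libraries but overlapping the other groups. Its mean was highest in transduced mutant nuclei, at 22.9 CPM.

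The remaining 39 members tested in VIP nuclei were not called in edgeR, though DESeq2 called Kcnq5 lower. Nearest to the threshold were Kcnq5, an M-current pore (log2 fold change -0.54 ± 0.16, adjusted p = 0.0774), Kcnd3, the Kv4.3 pore (-0.62 ± 0.19, 0.082), and Kcnk2, the TREK-1 leak channel (-0.83 ± 0.26, 0.0991). Without Kir2.1 replicate 6, a library in which Kcnc2 and Kcnn2 were at the top of their group, the count rose from 4 to 7 as Kcnb2, Kcnd3 and Kcnq5 were added, all lower with Kir2.1. Kcnh8, an ELK channel gene, was near the limit of detection, with 12 counts over the 10 Kir2.1 libraries and 67 over the 9 mutant ones. Kcna5 (Kv1.5) had no count in 74 of the 79 libraries and was never tested.

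The markers of the sorted cells moved in the same comparison. Of 12 VIP markers, 6 fell and none rose, and their summed level was 7950 to 13517 CPM with Kir2.1 and 18380 to 21314 CPM with the mutant. Of 9 gene models of GABAergic markers, 2 fell, with a sum of 913 to 1908 CPM against 1138 to 2441 CPM, and of 10 markers of other interneurons 1 fell, with summed levels of 156 to 272 CPM against 309 to 569 CPM. Of 12 excitatory markers 1 rose (Camk2a), with a sum of 959 to 1582 CPM against 650.1 to 811 CPM. Of the 12 excitatory markers, 10 had a log2 fold change above 0 and 5 an unadjusted p under 0.05, with a median of 0.63. Slc17a6 had a median of 0 CPM in both groups and Fezf2 in the mutant group, and Slc17a7 had a median of 5.03 CPM in both. No astrocyte, oligodendrocyte, microglia, precursor or vascular marker was called. The part of these markers in the results for Kcnc1, Kcnc2, Kcnn2 and Kcnh3 was not tested.

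Transduced VIP nuclei were also compared with non-transduced VIP nuclei of mice given the same vector. With Kir2.1, 4 of 43 members were called (0.769% of all genes, 0.17% higher and 0.599% lower): Kcnc1 rose (log2 fold change 1.00 ± 0.18, adjusted p = 0.000422), and Kcnc2 (-0.62 ± 0.14, 0.0198), Kcnn2 (-0.62 ± 0.13, 0.00445) and Kcnh8 (0.0333) fell. Kcnh3 was not called in this comparison in edgeR, though DESeq2 called it. This comparison shares its Kir2.1 transduced libraries with the one against the mutant, so the 2 sets of values are not independent. Non-transduced Kir2.1 VIP nuclei had 74.3, 113 and 129 CPM of Kcnc1, all below the transduced libraries, and VIP nuclei without AAV had 53.7, 86 and 143 CPM. For the members that fell, the libraries without AAV reached into the transduced Kir2.1 range: Kcnc2 had 316, 507 and 553 CPM, Kcnn2 348, 381 and 517 CPM, and Kcnh3 6.56, 15.8 and 20.9 CPM. Kcnh8 was at 0.172 to 12.6 CPM in the non-transduced libraries and at 0 to 0.639 CPM in the transduced ones, with 5 of those 10 at 0. No fold is given for Kcnh8, since its fitted value rests on 12 counts in all over the transduced libraries, and its call was lost in 8 of 27 alternatives. Of 12 VIP markers 3 fell in this comparison (Adarb2, Penk and Vip), of 9 GABAergic gene models 2 (Dlx1 and Dlx6os1) and of 10 markers of other interneurons 1 (Npy), and Camk2a rose of 12 excitatory markers. The VIP marker sum was 7950 to 13517 CPM in transduced and 14048 to 22997 CPM in non-transduced nuclei, and the excitatory sum 959 to 1582 against 588 to 941 CPM. The part of these markers in the members' changes was not tested.

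With the mutant vector, none of 43 members was called between transduced and non-transduced VIP nuclei in edgeR or DESeq2, where 0.00943% of all genes were called in edgeR, and 3 members had an unadjusted p under 0.05, beside 5.23% of all genes. The difference between the 2 vector effects was tested directly as an interaction. Kcnc1 alone of 43 members was called in edgeR (0.401% of all genes, 0.123% higher and 0.278% lower), with an interaction of 1.44 ± 0.26 on the log2 scale (adjusted p = 0.00151). It was called in all 45 alternatives. DESeq2 added Kcnh3, whose interaction in edgeR was -1.96 ± 0.57 (adjusted p = 0.112). For Kcnc2 it was -0.49 ± 0.21 (0.495) and for Kcnn2 -0.43 ± 0.19 (0.511), so a difference between the 2 vectors in the effect of transduction was not shown for these genes.

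Among nuclei sorted as non-transduced, no member was called between the vectors, either in VIP nuclei or in all nuclei (0 of 43 in each, in edgeR and in DESeq2, where edgeR called 0.0% of all genes). At an unadjusted p under 0.05, 11 members passed in VIP nuclei, 10 of them lower with Kir2.1, and 7 in all nuclei, 6 of them lower. The shares of all genes were 8.69% (4.75% higher and 3.94% lower) and 6.03% (3.3% higher and 2.74% lower). In both, 32 of 43 members had a log2 fold change below 0, against 49.2% and 50.4% of all genes. In non-transduced VIP nuclei the log2 fold change of Kcnc1 was -0.42 ± 0.18 (adjusted p = 0.449) and that of Kcnn2 -0.28 ± 0.13 (0.52). Mutant non-transduced libraries of VIP nuclei had 107, 123 and 235 CPM of Kcnc1. Injected mice were also compared with mice without AAV: none of 43 members was called in VIP nuclei or in all nuclei (0.00943% of all genes in VIP nuclei, and 0.211% in all nuclei, 0.197% higher and 0.014% lower). An unadjusted p under 0.05 was reached by 9 members in VIP nuclei, 8 of them higher with AAV, and by 5 in all nuclei, 4 of them higher, against 9.88% (6.51% higher and 3.37% lower) and 10.7% (7.64% higher and 3.08% lower) of all genes. In VIP nuclei 11 of 43 members lay below 0 and in all nuclei 14, against 43.6% and 44.2% of all genes. Sex and the absence of virus cannot be told apart within the uninjected group. DESeq2 called none either.

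In transduced neurons, most called members were lower with Kir2.1. Of 42 tested, 13 fell and 1 rose, where 5.63% of all genes were called, 3.45% lower and 2.18% higher. The falls covered BK, SK2, Slo2.1, Kv1.2 and its beta subunit, both kinds of Kv4 partner, EAG and ERG channels, KCNQ5, a Kv2 partner and a pair of leak channels. The median log2 fold change was -0.31 over the members and 0.04 over all genes, and 29 of 42 members lay below 0, against 46.1% of all genes. At an unadjusted p under 0.05, 2 members were higher and 18 lower, beside 9.23% and 9.17% of all genes. Without Kir2.1 replicate 10, the library of neurons that stood apart, 14 fell, with Kcnh3 added, and none rose. DESeq2 called 16 lower and 1 higher, with Kcna4, Kcnh3 and Kcnmb4 added to the falls. The shares of all genes called in those fits were not counted.

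**Figure D3:**
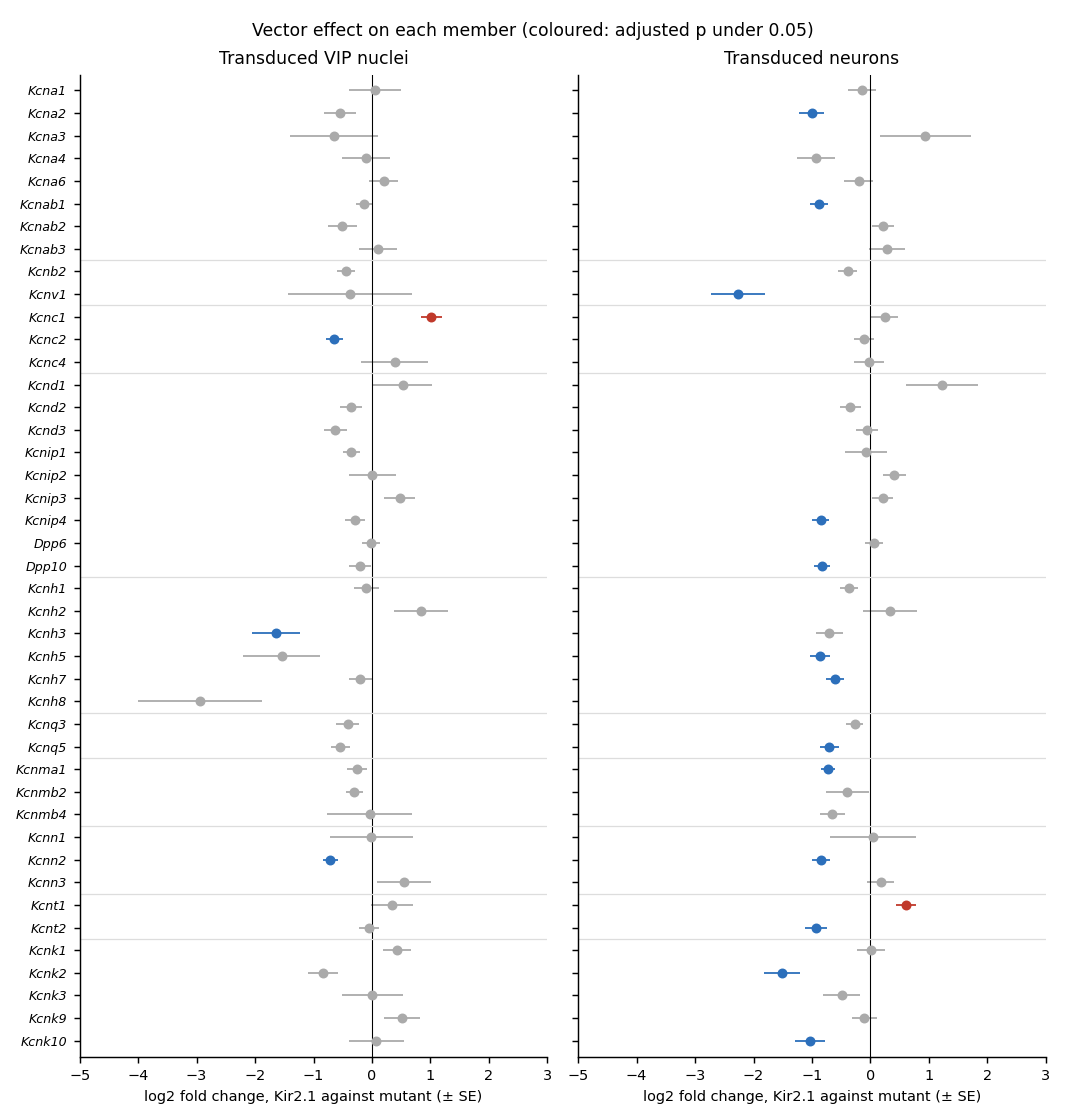
Log2 fold change of Kir2.1 against mutant (horizontal axes, ± SE) for each member in transduced VIP nuclei (left) and transduced neurons (right), with members in the order of their families between grey lines; coloured points are called, blue lower and red higher, and grey points are not called. Kcnc1 is red at 1.02 in VIP nuclei and Kcnt1 at 0.61 in neurons, and 13 members are blue in neurons.

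Kcnma1 (chr14:23289431-24014491, minus strand), the BK channel pore that opens on calcium and depolarisation together, had 798, 1049 and 1287 CPM over the 8 Kir2.1 libraries. Over the 8 mutant libraries it had 1469, 1763 and 1956 CPM. The groups did not overlap, and the means were 1057 ± 163 and 1755 ± 157 CPM (SD, n = 8 each). The log2 fold change was -0.73 ± 0.12 in edgeR (adjusted p = 0.000276). Its subunits Kcnmb2 (-0.40 ± 0.37, 0.639) and Kcnmb4 (-0.65 ± 0.21, 0.0743) were not called in edgeR, though DESeq2 called Kcnmb4 lower.

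Kcnn2 had 82.5, 104 and 135 CPM with Kir2.1 and 123, 181 and 254 CPM with the mutant. Only the lowest mutant library reached into the Kir2.1 range. Its log2 fold change was -0.85 ± 0.15 (adjusted p = 0.000841), beside -0.71 in VIP nuclei. Kcnn2 was 1 of the 3 members that fell in VIP nuclei and 1 of the 13 that fell in neurons. In edgeR with all libraries it was the only member called in both, and how many of all genes fell in both was not counted. Kcnh3 was called lower in both populations with DESeq2 and without the libraries that stood apart. Kcnq5 was called lower in both with DESeq2.

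The 2 Slo2 genes, whose channels open on sodium entry during firing, went opposite ways. Kcnt2 (chr1:140246158-140612067, plus strand) had 89.9, 193 and 269 CPM with Kir2.1 and 247, 352 and 512 CPM with the mutant, and 7 of 8 Kir2.1 libraries lay below all mutant ones. Kcnt1 (chr2:25863734-25918273, plus strand) had 100.3, 168 and 289 CPM with Kir2.1 and 104, 114 and 139.9 CPM with the mutant, and 7 of 8 lay above all mutant ones. The log2 fold changes were -0.93 ± 0.19 (adjusted p = 0.00221) and 0.61 ± 0.17 (adjusted p = 0.0266). The rise of Kcnt1 was lost without replicate 10 (0.48, adjusted p = 0.0551). The call was lost in 8 of 23 alternatives, which list that same fit again as the one without libraries that stood apart. In VIP nuclei neither was called (-0.05 and 0.34).

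Among Kv1 genes, Kcna2, the Kv1.2 pore that sits at the axon, had 21.1, 40.2 and 64.9 CPM with Kir2.1 and 56.7, 77.4 and 124 CPM with the mutant. Kcnab1, the beta subunit that speeds inactivation of Kv1 channels, had 95.2, 143 and 167 CPM against 211, 239.8 and 315 CPM. One Kir2.1 library overlapped the mutant range for Kcna2 and none for Kcnab1. Their log2 fold changes were -1.01 ± 0.21 (adjusted p = 0.00353) and -0.88 ± 0.15 (adjusted p = 0.000315). The other Kv1 pores tested, Kcna1, Kcna3, Kcna4 and Kcna6, ran from -0.93 to 0.94 and were not called in edgeR. DESeq2 called Kcna4 lower.

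Of the Kv4 complex, 2 of 6 partners, Kcnip4 and Dpp10, fell, and none of the 3 pores was called. Kcnip4 (chr5:48389502-49524907, minus strand) had 2961, 4290 and 6301 CPM with Kir2.1 and 6183, 7669 and 9845 CPM with the mutant. Dpp10 (chr1:123321471-124045559, minus strand) had 3326, 4181 and 5860 CPM against 6307, 7756 and 9164 CPM. Dpp10 did not overlap between the groups, and for Kcnip4 only the highest Kir2.1 library passed the lowest mutant one. Their log2 fold changes were -0.85 ± 0.15 (adjusted p = 0.000522) and -0.82 ± 0.14 (adjusted p = 0.000422). The pores Kcnd1, Kcnd2 and Kcnd3 were at 1.23, -0.35 and -0.05, and the partners Dpp6, Kcnip1, Kcnip2 and Kcnip3 at -0.08 to 0.41. Both genes that fell span many smaller gene models, 31 for Kcnip4 and 10 for Dpp10, whose reads could be split between them. Kcnma1, Kcnn2, Kcnab1, Kcnk2, Kcnh7, Kcnq5, Kcnt2 and Kcnk10 also overlap genes on the opposite strand.

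Kcnh5, an EAG channel gene, had 126, 163 and 269 CPM with Kir2.1 and 209.8, 287 and 412 CPM with the mutant. Kcnh7, an ERG channel gene, had 816, 1187 and 1762 CPM against 1400, 1961 and 2364 CPM. For both, a Kir2.1 library or a pair of them overlapped the mutant range. Kcnh5 fell by 0.86 ± 0.17 on the log2 scale (adjusted p = 0.00181) and Kcnh7 fell by 0.61 ± 0.15 (adjusted p = 0.0151). Kcnh3, called in VIP nuclei, was at -0.70 ± 0.23 here in edgeR (adjusted p = 0.0725). It was called lower in neurons with DESeq2 and without replicate 10 of Kir2.1.

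Kcnq5 had 739.9, 989 and 1536 CPM with Kir2.1 and 1241, 1756 and 2563 CPM with the mutant, with 6 of 8 Kir2.1 libraries below all mutant ones. It fell by 0.71 ± 0.16 (adjusted p = 0.00725), while its partner pore Kcnq3 was at -0.27 ± 0.15 (0.343). Kcnv1 (chr15:45106284-45114920, minus strand) had 0, 9.11 and 24.1 CPM against 21.8, 48.6 and 81.9 CPM. Its log2 fold change of -2.27 ± 0.46 (adjusted p = 0.00241) was the lowest of the 42 members, on a low level. Kcnb2, the Kv2 pore among the members, was not called (-0.39 ± 0.16).

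Of the leak channels, Kcnk2 (TREK-1, opened by stretch and lipids; chr1:189207930-189402273, minus strand) had 5.6, 21.7 and 30.2 CPM with Kir2.1 and 40, 51.3 and 76.6 CPM with the mutant. The groups did not overlap. Kcnk10 (TREK-2) had 8.25, 21.8 and 37.3 CPM against 25.6, 43.1 and 61.2 CPM, with 7 of 8 Kir2.1 libraries below all mutant ones. The log2 fold changes were -1.51 ± 0.30 (adjusted p = 0.00204) and -1.04 ± 0.26 (adjusted p = 0.0138). Kcnk1, Kcnk3 and Kcnk9, of other K2P groups, were not called (0.01, -0.49 and -0.11). In all, 4 members, Dpp10, Kcnab1, Kcnk2 and Kcnma1, did not overlap between the groups, beside 1.52% of all genes.

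**Figure D4:**
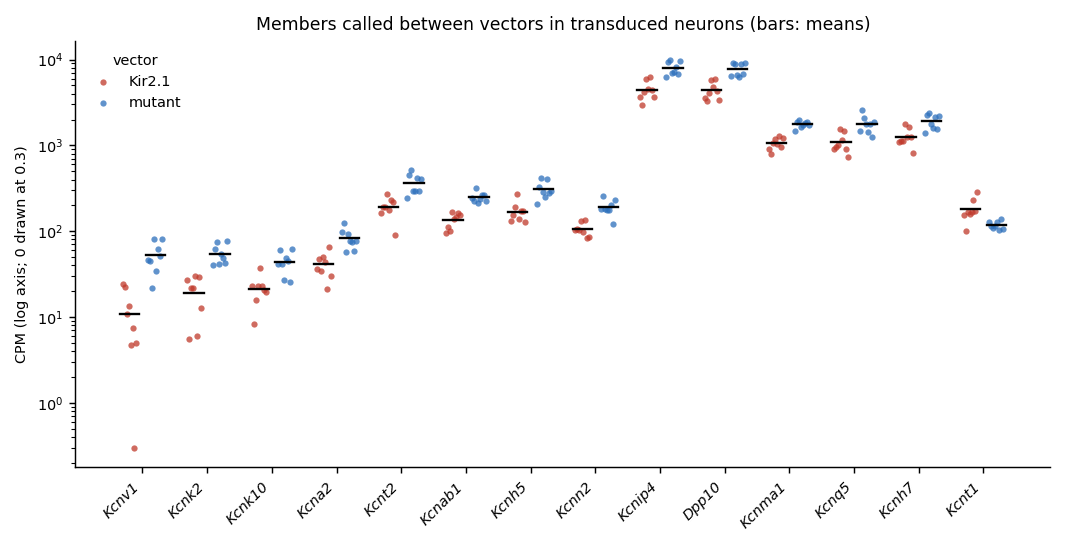
CPM (log axis, 0 drawn at 0.3) of the 14 members called in transduced neurons, in each of 8 Kir2.1 (red) and 8 mutant (blue) libraries, ordered by log2 fold change; black bars are means. The Kir2.1 libraries lie lower for 13 members and higher for Kcnt1, and the groups are apart for Dpp10, Kcnab1, Kcnk2 and Kcnma1.

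The 3 Kv3 genes were not called in neurons, where Kcnc1 was at 0.24 ± 0.23, Kcnc2 at -0.11 ± 0.17 and Kcnc4 at -0.03 ± 0.26. Kcnh1, Kcnh2, Kcnn1, Kcnn3, Kcnab2 and Kcnab3 ran from -0.37 to 0.34 and were not called either, and Kcnh8 was too sparse to test in neurons. The difference of the vector effect between VIP nuclei and neurons was tested over the 35 transduced libraries. None of 42 members was called by edgeR or DESeq2, where edgeR called 0.316% of all genes, 0.202% higher and 0.114% lower. At an unadjusted p under 0.05, 7 members were higher and 2 lower in this difference, beside 4.37% and 2.65% of all genes, and 15 of 42 lay below 0, against 47.8% of all genes. The difference for Kcnc1 was 0.81 ± 0.29 on the log2 scale (adjusted p = 0.356), for Kcnab1 0.78 ± 0.21 (0.109) and for Kcnt2 0.91 ± 0.27 (0.153). Without the libraries that stood apart, Kcnc1 was called, and with the replicate number as a block Kcnab1 was called. A difference between the 2 populations was thus not shown for the members in the main fit.

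Of the 13 members that fell in neurons, 7 were lower in VIP nuclei than in all nuclei, 3 were higher (Kcnn2, Kcnq5 and Kcnt2) and 3 were not called, beside 20 lower and 12 higher among the 43 members tested. The markers of GABAergic cells differed between the neuron groups: their summed level was 50.5 to 160.0 CPM with Kir2.1 and 136 to 299.99 CPM with the mutant, and 3 of 6 tested fell. The VIP marker sum was 133 to 508 against 311 to 766 CPM, with 1 of 6 called lower, and Htr3a had a median of 0 CPM in both groups, Vip in the mutant group, and Crh, Prox1 and Tac2 in the Kir2.1 group. The astrocyte sum was 191 to 288 against 358 to 470.5 CPM, with 2 of 5 called lower, and the excitatory sum 1758 to 2210 against 2134 to 2561 CPM, with 1 of 12 called lower. Of 9 markers of other interneurons tested, 2 were called lower (Lamp5 and Reln), with a sum of 250.3 to 578 against 374 to 565 CPM. The part of these markers in the members' falls was not tested.

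The length of a gene moved with its fold change. In neurons, genes spanning over 200 kb had a median log2 fold change of -0.25 and 20.6% of 977 fell, while genes under 50 kb had a median of 0.13 and 1.08% fell. Of the 17 members over 200 kb, 9 fell, or 52.9%, with a median of -0.61. In VIP nuclei 5.93% of genes over 200 kb fell, and 1 of 18 such members, Kcnn2. Of the 17 members under 50 kb, 2 fell in neurons, Kcnv1 (8.64 kb) and Kcna2 (13.9 kb). In VIP nuclei 1 of 17 such members fell, Kcnh3 (18 kb), and 1 rose, Kcnc1 (42.2 kb). Among all genes under 50 kb, 0.49% fell and 0.384% rose in VIP nuclei. The part of gene span in the members' changes was not tested.

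A fit that removed the trend with span in each library was added after the data were seen. It kept all 4 calls in VIP nuclei, where Kcnn2 moved from -0.71 to -0.46 and Kcnc2 from -0.64 to -0.47. In neurons 12 of the 13 falls kept their call, Kcnh7 lost it (-0.29, adjusted p = 0.093), and a fall of Kcna4 and a rise of Dpp6 were added. The share of all genes called in that fit was not counted, so these counts only describe the members. The changes of long genes became smaller in that fit: Kcnma1 moved from -0.73 to -0.39, Kcnip4 from -0.85 to -0.46, Kcnq5 from -0.71 to -0.38 and Dpp10 from -0.82 to -0.48. Kcnv1 was at -2.45 and Kcnc1 in VIP nuclei at 1.05.

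**Figure D5:**
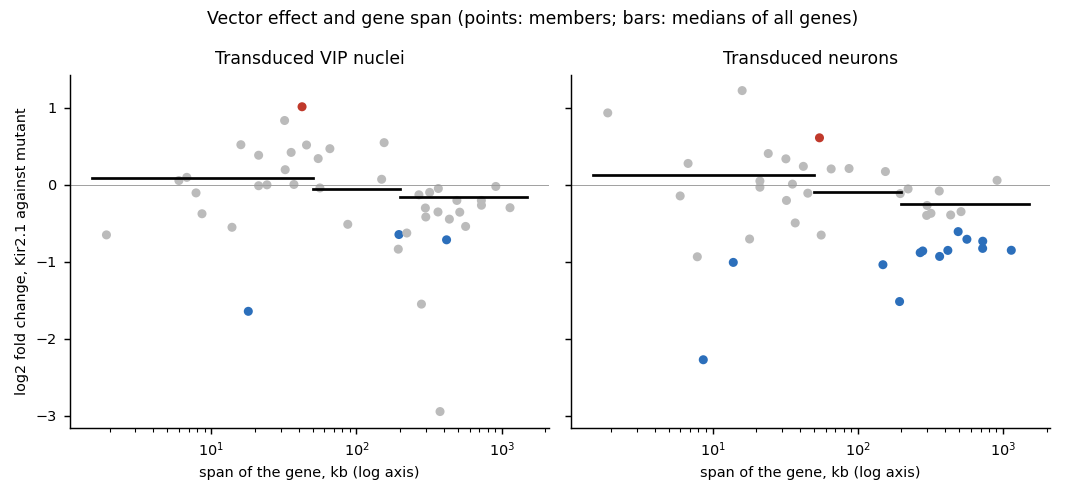
Log2 fold change of Kir2.1 against mutant (vertical axes) by gene span in kb (log axes) in transduced VIP nuclei (left) and transduced neurons (right); points are members, blue called lower, red called higher and grey not called, and black bars are medians of all genes tested under 50 kb, from 50 to 200 kb and above. In neurons the bars step from 0.13 to -0.25 and 9 of the 17 members above 200 kb are blue, with Kcnv1 and Kcna2 the blue points below 50 kb.

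Genes of the same families that are not members were counted the same way. Of 26 tested in VIP nuclei 1 fell, Kcnf1, a silent subunit (log2 fold change -1.09 ± 0.30, adjusted p = 0.0486), and of 20 tested in neurons none was called in edgeR, with 4 at an unadjusted p under 0.05. Of 16 partners that cluster or regulate Kv channels, Cntnap2, which gathers Kv1 channels beside the node of Ranvier, fell in VIP nuclei (-0.67 ± 0.16, 0.0129). In neurons Adam23, a receptor for the secreted Kv1 regulator LGI1, fell (-0.97 ± 0.20, 0.00248). The inward rectifier Kcnj3, a GIRK channel pore, fell in both (-0.79 ± 0.18, 0.00862, and -0.70 ± 0.18, 0.0149), as the only 1 called of 11 and of 8 tested.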

How the data were processed

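The authors deposited raw whole-number counts for 55335 genes in 79 libraries. Tools listed in the submitters' processing notes are HOMER 4.9.1, STAR 2.5.3a and cutadapt 1.18, with the build mm10. The annotation, counting settings and use of strand are not given in the sources used here. Gene IDs were named with GENCODE vM21 (55154 of 55335 matched). Libraries were grouped by their titles.

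Counts were tested with edgeR 4.0.16 in R 4.3.3: TMM factors, filterByExpr (at least 10 counts, total 15), a quasi-likelihood F test, two-sided, with Benjamini-Hochberg adjustment over all genes tested. Called means an adjusted p under 0.05. The SE is the log2 fold change divided by the square root of F. VIP libraries, libraries of all nuclei and neurons each had a fit of their own, and comparisons across populations were fitted on the libraries they needed. CPM values use TMM-scaled library sizes. The steps were tested on simulated data. Members with an adjusted p under 0.05 between vectors or in an interaction are described in full. The members and lists were chosen with earlier results of these data known. Alternatives were median-ratio factors, DESeq2 1.42.0, no filter, a replicate block, sex, 2 groups alone and leaving out libraries. For the alternatives the share of all genes called was not counted.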

Additional observations from a re-analysis of the deposited data

Results flagged for a closer look

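In the group of 9 transduced VIP libraries with the mutant vector, Kcnc1 stood at 208 CPM in replicate 1, far above the next library at 118 CPM. That library also stood apart in its whole profile. Without the libraries that stood apart, this one among them, the log2 fold change of Kcnc1 between the vectors was 1.21. Among the 8 Kir2.1 libraries of neurons, Kcnh5 stood at 269 CPM in replicate 6, above the next at 190.4 CPM. These were 2 of 36 groups examined for a lone high or low library, and chance gives about 1 in 20.

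The vector effect on Kcnc1 differed between transduced and non-transduced VIP nuclei by 1.44 on the log2 scale, by a test of that difference.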

How the results depend on the processing

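No result changed direction under any alternative. The count of members called was within 1.5 times its value except in 3 comparisons. In transduced VIP nuclei it went from 4 to 7 without Kir2.1 replicate 6, and leaving out each library in turn gave 4 to 7. For the difference between VIP nuclei and neurons it went from 0 to 1 with the replicate number as a block (Kcnab1) and to 1 without the libraries that stood apart (Kcnc1), the latter chosen after seeing the data. For the difference between transduced and non-transduced nuclei it went from 1 to 2 with DESeq2 (Kcnh3). The cause was not tested. Leaving out single libraries gave 13 to 14 calls in neurons.

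Same-numbered libraries of the 2 vectors had correlations of -0.126 to 0.092 in transduced VIP nuclei and -0.101 to 0.045 in neurons, with 1 of 9 and 0 of 7 best with their own number, and 4 and 3 pairs differed in sex. Within a vector they were closer: between transduced and non-transduced VIP nuclei they ran from 0.007 to 0.193 for Kir2.1 and from -0.108 to 0.56 for the mutant, with 4 pairs over 0.1 and 6 best with their own number in each, of 10 and 9. Between non-transduced VIP nuclei and all nuclei, 5 of 10 Kir2.1 and 6 of 9 mutant libraries were best with their own number. Without AAV 2 of 3 were, and no such pair differed in sex. The p-values of VIP nuclei against all nuclei, of transduced against non-transduced nuclei and of the interactions take these libraries as separate. No label ties a number to a mouse and no pair of groups had every correlation over 0.1, so the main fits used no block. A shared source within a vector was not tested further. With the replicate block the counts were 4 in VIP nuclei, with Kcnd3 in place of Kcnh3, and 12 in neurons, without Kcnq5, Kcnt1 and Kcnh7 and with Kcnh3. Between transduced and non-transduced Kir2.1 VIP nuclei it was 3, without Kcnh8 (adjusted p = 0.107), and the interaction of vector and transduction kept Kcnc1. At 50 to 100 nuclei per library, Kcna5 was too sparse to test and Kcnh8 too sparse for a fold.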
